A study of Mus musculus with 31 samples.

Results

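Interferon-stimulated genes are genes whose transcription rises in cells that have bound interferon. The list described here named 39 of them, taken as given and represented by 1 probe set per gene, the one of highest mean over all 31 arrays. Of these, 37 had a probe set of their own, among 18194 genes so measured, and all 37 were among the 14016 genes that passed the filter on low values. Isg15 was read only by a probe set that names a further gene as well, and Ifi44 by none, so neither has a value below.

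Type I interferons bind the receptor of Ifnar1 and Ifnar2, whose kinases Jak1 and Tyk2 phosphorylate STAT2. With IRF9 it is part of ISGF3, a complex that binds the interferon-stimulated response element (ISRE) in promoters. Interferon gamma acts through Ifngr1 and Ifngr2 and the gamma-activated site (GAS) in promoters, and it drives Irf1 and the interferon-inducible GTPases. The products block viral entry, copying and translation, sense foreign RNA, or feed back on the pathway, and in the mouse thymus a low interferon tone is known to act on late thymocytes.

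RNA was measured on Affymetrix mouse expression arrays, as GCRMA-normalized intensities, given here as log2(intensity + 1). The tumors arose in the thymus after the alkylating mutagen ENU at 100 mg/kg and were taken when they developed or 9 months after ENU. There were 7 from NDR1-/- mice (KO, 6 female and 1 male), 7 from NDR1+/- mice (HT, 6 female and 1 male) and 5 from NDR1+/+ mice (WT, all female). The thymi were untreated, 4 of each genotype, with 2 female and 2 male in each group. All were C57BL/6, and the labels give no ages. NDR1 is the kinase encoded by Stk38, and the labels do not say which part of it the mutation disrupts. Titles name thymocytes and tumor cells while tissue labels name thymus, and the labels do not say whether each array is a separate animal, so p-values measure only the spread between these arrays. In bulk RNA, fewer cells of a type and less RNA per cell cannot be told apart.

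Stk38 itself checks the labels. Its log2 level was 10.64 to 11.34 in KO thymi, 11.33 to 11.58 in HT thymi and 11.69 to 12.03 in WT thymi, and KO thymi were lower than WT thymi by a log2 difference of -0.94 (SE 0.096, limma adjusted p = 0.00112). In tumors it ran from 8.73 to 13.08 in those labelled KO, 10.71 to 12.77 in HT and 11.38 to 13.04 in WT. In 4 of the 7 tumors labelled KO (numbers 03, 04, 06 and 07) Stk38 was at 11.47 to 13.08, above the lowest WT tumor, and in the other 3 at 8.73 to 9.52, so the genotype of these tumors rests on the labels. They are called tumors labelled KO below.

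In addition, the 4 tumor arrays of highest B cell marker mean were set apart, and this ranking is the rule for naming them. The mean of 8 B cell markers was 12.24 in KO tumor 06, 11.72 in KO tumor 04, 11.65 in HT tumor 01 and 10.02 in HT tumor 03, against 4.18 to 9.36 in the other 15 tumors and 4.81 to 5.97 in the thymi. The nearest tumor outside the rule was KO tumor 03, at 9.36. Markers of mature T cells were likewise at 11.61 to 12.25 in the 4, 5.64 to 9.74 in the other 15 and 8.83 to 9.62 in thymi. The main results on tumors are therefore given with and without these 4, which are named by number.

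Promoters of such genes are known to hold ISRE or GAS sites, so a few are printed before the values. RefSeq promoters of assembly GRCm38.p6, 250 bases before to 50 after the start, were at hand for 30 of the 39 genes. Usp18, Rtp4, Oas2, Mx1, Mx2, Dhx58, Parp14, Parp9 and Zbp1 had none. The ISRE core, GAAA, any 2 bases and GAAA again, searched on both strands, was in 15 of the 30 (50%), against 3.99% of the promoters of 27025 genes. The GAS pattern TTCNNNGAA, which reads alike on either strand, was in 10 (33.33%), against 9.55%. Where a gene had more than 1 promoter, its highest count of matches was taken, for members and all genes alike. The promoter printed is the one with most matches, so it need not be the main one. The stretch printed for Ifit3 lies past the outermost start of that gene, at 34583119. For Oas1a, on the minus strand, the end of the stretch also runs past the outermost start, at 120907544. The ISRE matches of Oas1a lie at that end, so they are not clearly upstream of the gene. The sequences below run 5′ to 3′ on the gene's strand over the 170 bases up to the start, with matches to the ISRE core or GAS in capitals. Ifit1 and Ifit3, both on chromosome 19, carry 2 ISRE matches each, in which the core reads in reverse (TTTC, 2 bases, TTTC). Oas1a and Igtp carry both kinds, Rsad2 and Gbp2 the ISRE, and Irf1 the GAS alone.
Ifit1, chr19:34640719-34640888, plus strand: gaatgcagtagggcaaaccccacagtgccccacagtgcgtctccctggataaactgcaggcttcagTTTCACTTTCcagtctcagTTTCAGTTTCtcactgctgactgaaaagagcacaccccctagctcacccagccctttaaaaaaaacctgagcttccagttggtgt
Ifit3, chr19:34583359-34583528, plus strand: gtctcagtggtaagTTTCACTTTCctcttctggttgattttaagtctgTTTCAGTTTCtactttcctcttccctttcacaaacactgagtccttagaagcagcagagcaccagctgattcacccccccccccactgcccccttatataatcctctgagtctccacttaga
Rsad2, chr12:26456453-26456622, minus strand: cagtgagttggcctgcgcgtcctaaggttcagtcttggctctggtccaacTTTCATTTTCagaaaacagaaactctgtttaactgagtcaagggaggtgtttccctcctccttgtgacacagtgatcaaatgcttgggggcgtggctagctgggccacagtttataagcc
Oas1a, chr5:120907526-120907695, minus strand: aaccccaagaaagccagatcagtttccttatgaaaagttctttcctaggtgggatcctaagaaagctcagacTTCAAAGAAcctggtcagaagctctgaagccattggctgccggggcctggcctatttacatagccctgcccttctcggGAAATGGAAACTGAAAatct
Gbp2, chr3:142620493-142620662, plus strand: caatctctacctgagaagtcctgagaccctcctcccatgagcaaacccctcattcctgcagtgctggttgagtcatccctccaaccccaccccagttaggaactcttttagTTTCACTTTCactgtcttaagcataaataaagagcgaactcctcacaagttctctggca
Igtp, chr11:58199386-58199555, plus strand: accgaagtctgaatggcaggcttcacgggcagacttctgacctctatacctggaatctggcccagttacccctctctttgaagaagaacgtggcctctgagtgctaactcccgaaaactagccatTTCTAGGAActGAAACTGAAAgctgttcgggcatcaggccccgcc
Irf1, chr11:53769844-53770013, plus strand: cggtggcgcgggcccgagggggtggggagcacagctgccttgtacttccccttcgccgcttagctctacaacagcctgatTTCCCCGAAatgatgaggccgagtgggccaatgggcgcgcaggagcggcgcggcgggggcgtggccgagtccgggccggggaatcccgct
A match describes these letters and does not show binding. Over the measured members with a promoter, the median log2 difference of tumors without the 4 minus thymi was -1.01 for the 14 with an ISRE match and -1.02 for the 14 without.

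**Figure D1:**
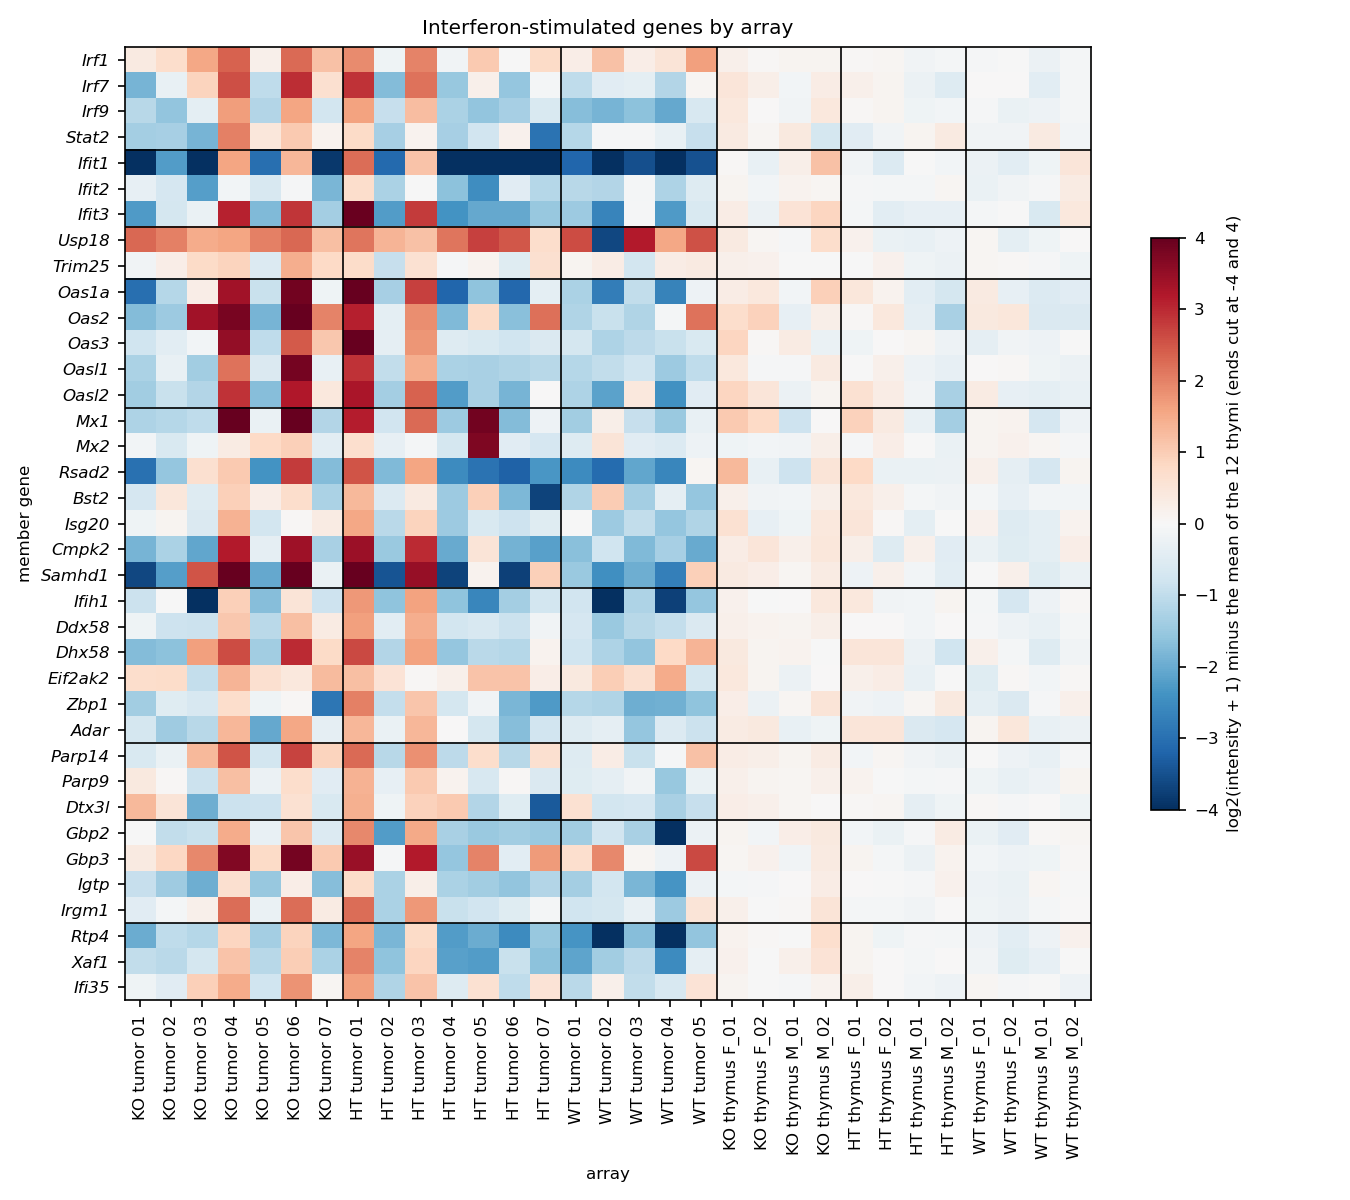
Log2(intensity + 1) of the 37 genes (rows, grouped by role) on the 31 arrays (columns, grouped by tissue and genotype), as the difference from the mean of the 12 thymi, with colours ending at -4 and 4. HT tumors 01 and 03 and KO tumors 04 and 06 were high for most rows, while the other 15 tumors were low for Ifit1 and Rtp4. Most of these 15 were also low for Rsad2 and most OAS genes.

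Interferon-stimulated genes lay mostly above the thymus level in 4 tumors, and on average below it in 14 of the other 15. The mean over the 37 genes was 10.43 in KO tumor 06, 10.33 in KO tumor 04, 10.63 in HT tumor 01 and 9.91 in HT tumor 03. In the other 15 tumors it was 7.10 at the lowest, 7.61 at the median and 8.24 at the highest, and in the 12 thymi 8.23, 8.44 and 8.81. Thus 4 tumors were above the highest thymus, 14 were below the lowest, and WT tumor 05 alone, at 8.24, was just inside the thymus range.

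**Figure D2:**
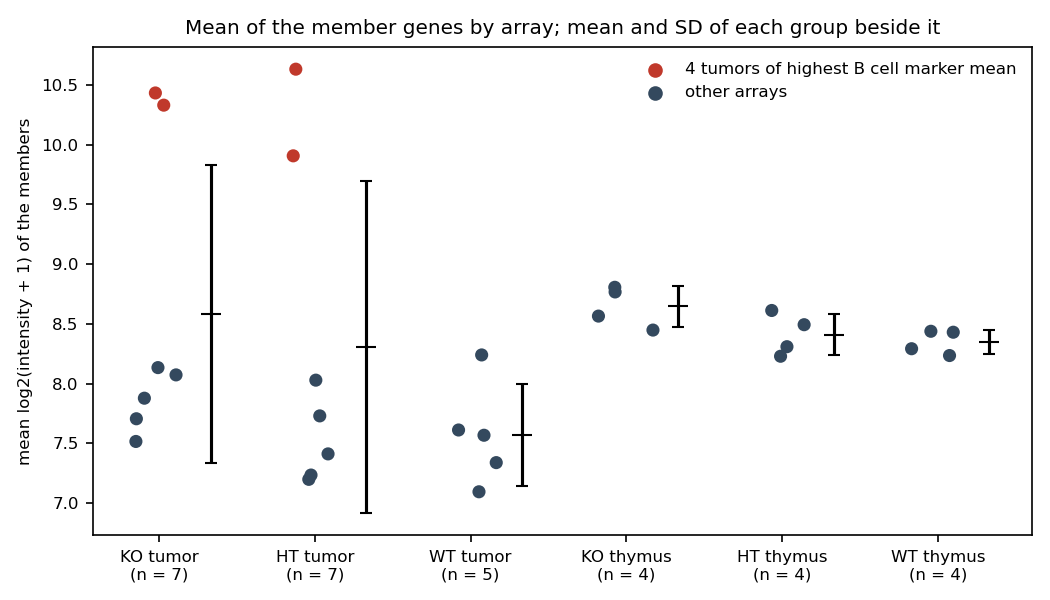
Mean log2(intensity + 1) of the 37 genes on each array (points), by tissue and genotype, with each group's mean and SD beside it. The 4 tumors of highest B cell marker mean (red) lie at 9.91 to 10.63, the other 15 tumors at 7.10 to 8.24 and the thymi at 8.23 to 8.81.

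Counted gene by gene, HT tumor 01 was above the highest thymus for 37 of 37 members, where 27.1% of all genes were. KO tumor 04 was above it for 34 (31.7% of all genes), KO tumor 06 for 33 (34.3%) and HT tumor 03 for 30 (26.1%). In the other 15 tumors 2 to 11 members lay above the highest thymus (21.5% to 42.5% of all genes), and 16 to 32 lay below the lowest (24.9% to 34.5% of all genes). For 21 members, each of the 4 tumors was above all other 27 arrays, as for 5.64% of all genes. These 21 were Irf1, Irf7, Irf9, Ifit3, Oas1a, Oas3, Oasl1, Oasl2, Ifi35, Ifih1, Ddx58, Parp9, Parp14, Gbp2, Gbp3, Irgm1, Rtp4, Xaf1, Cmpk2, Adar and Samhd1. The Ifit2 level stood out least, at 10.05 in KO tumor 06, 9.99 in KO tumor 04, 10.81 in HT tumor 01 and 10.11 in HT tumor 03, against thymi at 9.85 to 10.44.

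Several markers of other cell types were high in the same 4 arrays, and their part in the member levels was not tested. The mean of 5 plasma cell markers was 10.94 to 11.99 in the 4. It was 7.45 to 9.46 in the other 15 and 7.56 to 9.01 in thymi. The 5 measured markers of conventional dendritic cells averaged 5.87 to 6.80, 3.81 to 5.54 and 4.22 to 5.14 in these sets. The mean of 5 NK cell markers was 7.55 to 8.89 in the 4, 5.12 to 6.16 in the other 15 and 5.46 to 6.497 in thymi, but the 5 disagreed. Eomes, Klra8 and Klrk1 averaged 11.17, 8.45 and 7.64 in the 4, against 4.75, 3.67 and 3.44 in the other 15, Gzma was lower (10.16 against 12.71), and Ncr1, a defining NK marker, was near the floor (3.89 against 3.32). The mean of 6 neutrophil markers was 8.04 to 9.76 in the 4, 3.78 to 6.87 in the other 15 and 5.39 to 9.21 in thymi, which the 4 overlapped. The 7 plasmacytoid dendritic cell markers averaged 8.44 to 8.93 in the 4. They averaged 7.06 to 8.50 in the other 15 and 7.16 to 7.75 in thymi. The 8 macrophage markers averaged 7.98 to 10.48, 6.59 to 9.16 and 5.50 to 7.71 in these sets. For both lists the 4 overlapped the other 15. In the other direction, 7 markers of cycling cells averaged 8.03 to 9.66 in the 4, 9.92 to 12.19 in the other 15 and 11.24 to 11.67 in thymi. The 8 double-positive thymocyte markers averaged 7.55 to 10.55, 9.71 to 11.92 and 12.74 to 12.91 in these sets. The 5 T lineage markers, the check on the labelled tissue, were high on every array, averaging 11.97 to 12.84 in the 4, 12.92 to 13.68 in the other 15 and 13.54 to 13.82 in thymi.

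**Figure D3:**
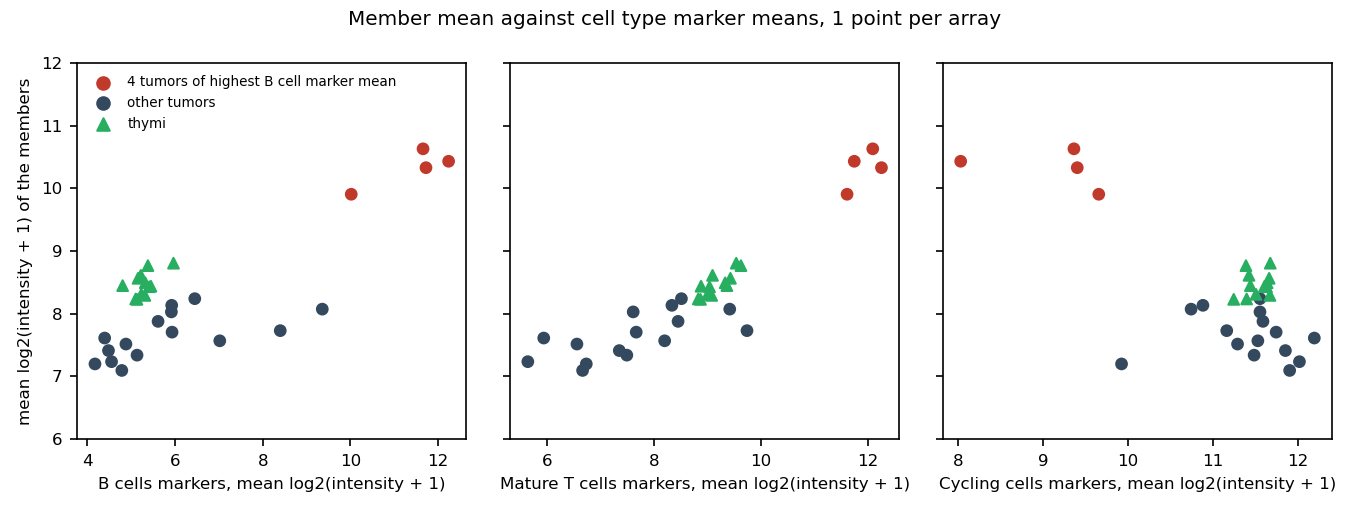
Mean of the 37 genes (vertical, log2(intensity + 1)) against the means of B cell, mature T cell and cycling cell markers (horizontal, the same scale), with 1 point per array. The 4 tumors (red circles) are separate from the other tumors (dark circles) and the thymi (green triangles) in all 3 panels.

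Across all 19 tumors and 12 thymi, 6 of 37 members passed the test of tumor against thymus, 2 higher and 4 lower, where 24.2% of all genes tested passed (1623 genes, or 11.6%, higher and 12.6% lower). The test was limma with genotype and sex in the fit, averaged over the 3 genotypes, with Benjamini-Hochberg adjustment over 14016 genes. The median log2 difference of the members was -0.53, against 0.05 over all genes, and 31 of 37 were below 0. Without the 4 tumors, 24 members passed, 2 higher (16.5% of all genes) and 22 lower (16.9%), and the median was -0.85 (33.4% of all genes passed in either direction). At an unadjusted p under 0.05 there were 11 members with all tumors (37.0% of all genes) and 28 without the 4 (43.8%). All 37 members averaged higher in the 4 than in the other 15, so leaving them out lowers the tumor means and can narrow the spread. The p-values without the 4, here and below, describe the other 15 tumors only and are no separate evidence of a fall in tumors. Without both male tumors 2 passed, Irf1 and Gbp3, both higher (8.43% of all genes were higher and 9.7% lower). The calls of Usp18 (log2 difference 1.60), Ifit1 (-2.52), Rtp4 (-1.45), Igtp (-0.87) and Ifit2 (-0.73) were lost there, with limma adjusted p of 0.0573 to 0.125.

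IFIT proteins bind viral RNA and hold back its translation. Ifit1 (chromosome 19, 34640889 to 34650009) was 9.65 in KO tumor 06, 9.90 in KO tumor 04, 10.56 in HT tumor 01 and 9.47 in HT tumor 03. The other 15 tumors ran from 3.30 to 6.11 with a median of 4.01, and the thymi from 7.79 to 9.49 with a median of 8.21. All 15 were below every thymus. Of the 4, 3 were above every thymus and HT tumor 03 lay just under the highest one. Ifit1 was lower in tumors, with a log2 difference of -2.91 (SE 0.802, limma adjusted p = 0.00963), or -3.70 without the 4 (SE 0.266, limma adjusted p = 3.64e-10).

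Ifit2 was also lower in tumors, with a log2 difference of -0.86 (SE 0.290, limma adjusted p = 0.0318), or -1.06 without the 4 (limma adjusted p = 0.000959). Its call was lost without WT thymus F_02, HT thymus F_01, HT thymus F_02, KO thymus F_01 or HT tumor 04, with limma adjusted p of 0.0505 to 0.0854. Ifit3 was 10.82, 11.04, 11.92 and 10.76 in KO tumors 06 and 04 and HT tumors 01 and 03, 5.33 to 7.93 in the other 15 tumors and 7.36 to 8.83 in thymi. Its log2 difference was -0.82 over all tumors and missed the threshold (limma adjusted p = 0.421), and it was -1.51 without the 4 (limma adjusted p = 0.000162).

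Irf1, Irf7, Irf9 and Stat2 are transcription factors of the response. Irf9, the DNA-binding part of ISGF3, was 11.26 in KO tumor 06, 11.36 in KO tumor 04, 11.32 in HT tumor 01 and 10.93 in HT tumor 03. The other 15 tumors ran from 7.66 to 9.30 with a median of 8.43, and the thymi from 9.43 to 10.13. The 3 sets did not overlap: the 15 lay below every thymus and the 4 above. Over all tumors Irf9 had a log2 difference of -0.96 (SE 0.374, limma adjusted p = 0.0624), and without the 4 it was lower (log2 difference -1.32, SE 0.156, limma adjusted p = 9.65e-07). Irf7, which amplifies type I interferon transcription, was 10.02, 9.64, 9.97 and 9.26 in the 4 (KO 06, KO 04, HT 01, HT 03), 5.22 to 7.97 in the other 15 tumors and 6.56 to 7.57 in thymi. The 15 overlapped the thymi on both sides, and the difference without the 4 was -0.75 (limma adjusted p = 0.0459).

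Stat2 levels overlapped more, at 8.02, 9.00, 7.75 and 7.12 in KO 06, KO 04, HT 01 and HT 03, 4.05 to 7.45 in the other 15 tumors and 6.28 to 7.39 in thymi. Its log2 difference was -0.57 (limma adjusted p = 0.303), and -0.85 without the 4 (limma adjusted p = 0.0378). Irf1, a factor induced by interferon gamma, rose: it was 12.36, 12.45, 11.99 and 12.06 in the 4, 9.91 to 11.72 (median 10.61) in the other 15 and 9.85 to 10.29 in thymi. All 5 WT tumors, at 10.36, 11.25, 10.35, 10.61 and 11.72, were above every WT thymus. The log2 difference was 0.78 (SE 0.269, limma adjusted p = 0.0366), and 0.56 without the 4 (limma adjusted p = 0.0242). The Irf1 call over all tumors was lost without any 1 of the 6 female thymi or without WT tumor 02 or 05, with limma adjusted p of 0.0547 to 0.0817.

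In the ISG15 system, Usp18 removes ISG15 from proteins and damps signalling at the type I receptor. It was 11.09, 10.38, 10.93 and 9.98 in KO 06, KO 04, HT 01 and HT 03, and 5.17 to 11.97 with a median of 10.83 in the other 15, against 8.41 to 9.51 in thymi. All tumors but WT tumor 02 were above every thymus, and here the 4 were not higher than the rest. Usp18 was higher in tumors by a log2 difference of 1.68 (SE 0.490, limma adjusted p = 0.014) with all tumors and 1.68 without the 4 (limma adjusted p = 0.0187), and its call was lost without the male tumors (1.60, limma adjusted p = 0.0573). Trim25, an ISG15 and ubiquitin ligase of the RIG-I pathway, differed by 0.13 and did not pass (limma adjusted p = 0.663).

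The OAS family makes the second messenger that activates RNase L, or in its OASL members binds RNA without that activity in humans. Oas1a was 11.89, 11.40, 12.03 and 10.77 in KO 06, KO 04, HT 01 and HT 03, 4.86 to 8.29 in the other 15 tumors and 7.33 to 8.98 in thymi. With all tumors it differed by -1.035 on the log2 scale (SE 0.743, limma adjusted p = 0.322), and without the 4 by -1.72 (SE 0.378, limma adjusted p = 0.00127). Oasl2, Oasl1 and Oas3 also fell without the 4, with log2 differences of -1.40, -1.03 and -0.60. Oas2 did not pass: it was 11.34, 9.86, 9.16 and 7.90 in the 4, 4.20 to 9.43 (median 5.18) in the other 15 and 4.76 to 6.98 in thymi. Among the 15, KO tumors 03 and 07, HT tumor 07 and WT tumor 05 had Oas2 at 9.43, 8.04, 8.27 and 8.24, above every thymus.

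Of the genes that restrict virus replication, Rsad2 (viperin, which makes a chain-terminating nucleotide) was 10.87 in KO tumor 06, 9.12 in KO tumor 04, 10.59 in HT tumor 01 and 9.66 in HT tumor 03. It was 4.83 to 8.70 in the other 15, with a median of 5.68, and 7.25 to 9.38 in thymi. Its log2 difference was -1.60 with all tumors (SE 0.662, limma adjusted p = 0.0787) and -2.17 without the 4 (SE 0.389, limma adjusted p = 0.000157). Only KO tumor 03 and WT tumor 05 among the 15 reached the thymus range, at 8.70 and 8.15. Samhd1, which degrades deoxynucleotides, spread widely among the 15 tumors, over 6.27 log2 units. It was 13.06, 12.85, 12.66 and 12.12 in the 4 (KO 06, KO 04, HT 01, HT 03), 4.91 to 11.17 in the other 15 and 8.18 to 9.01 in thymi, and it fell without the 4 (log2 difference -1.83, limma adjusted p = 0.0297).

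Mx1 and Mx2 are dynamin-like GTPases that trap viral nucleoproteins, and most laboratory mouse strains carry defective alleles. Mx1 was 9.81, 9.73, 8.83 and 7.94 in KO 06, KO 04, HT 01 and HT 03, 3.95 to 9.54 in the other 15 (median 4.67) and 4.32 to 6.72 in thymi. Among the 15, HT tumor 05 alone was above the thymi, at 9.54 for Mx1, and it was also the highest array for Mx2, at 7.99 against 3.54 to 5.19 in the other tumors and 3.98 to 4.51 in thymi. The mean of the 37 was 8.03 in HT tumor 05, below every thymus, and 10 members lay above the highest thymus. Of 5 neighbouring genes on chromosome 16, looked at after these values were seen, Ripk4 was 10.81 and Tmprss2 5.77 in HT tumor 05, against thymi up to 4.62 and 4.14. Ripk4 was also high in KO tumor 05, at 9.64, while Bace2 (3.52), Fam3b (3.57) and Prdm15 (9.44) in HT tumor 05 were within the range of the other tumors. Bst2, or tetherin, which holds budding virions at the surface, was 10.26, 10.53, 10.88 and 9.93 in the 4, 5.86 to 10.60 in the other 15 and 9.24 to 9.98 in thymi, and did not pass with or without the 4.

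Cytosolic sensors gave mixed results. Ifih1 (MDA5) was 9.43, 9.87, 10.67 and 10.52 in KO 06, KO 04, HT 01 and HT 03, 4.18 to 8.90 in the other 15 and 8.25 to 9.35 in thymi. It fell without the 4 (log2 difference -1.70, SE 0.458, limma adjusted p = 0.00626), as did Ddx58 (RIG-I, -0.72, limma adjusted p = 0.000391). Zbp1, which binds Z-form nucleic acid and triggers cell death, was 9.02, 9.69, 11.01 and 10.11 in the 4, 6.09 to 8.85 in the other 15 and 8.42 to 9.49 in thymi, and fell without the 4 (log2 difference -1.10, SE 0.257, limma adjusted p = 0.00208). Adar, the RNA editor that hides self RNA from MDA5, fell by 1.01 without the 4 (limma adjusted p = 0.00104), but its probe sets differed. The one used averaged 9.13 in WT tumors and 9.91 in WT thymi. Its other probe sets averaged 9.49 and 7.68 in WT tumors and 9.57 and 8.51 in WT thymi. Dhx58 (LGP2) and Eif2ak2 (PKR, which stops translation on double-stranded RNA) did not pass in either fit.

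The remaining groups split by member. Among interferon-inducible GTPases, which attack intracellular vacuoles, Igtp was lower in tumors by a log2 difference of -1.05 (SE 0.308, limma adjusted p = 0.0143), or -1.32 without the 4. It ran from 9.57 to 11.69 in the 15, and from 11.65 to 12.22 in thymi, with 12.17, 12.56, 12.64 and 12.13 in KO 06, KO 04, HT 01 and HT 03. Gbp2 fell by 1.16 without the 4 (limma adjusted p = 0.0046), and its second probe set was likewise lower in all 3 tumor groups than in thymi of the same genotype. Irgm1 and Gbp3 did not pass in either of these fits. Parp14, an ADP-ribosyltransferase, Parp9, and Dtx3l, the ubiquitin ligase partner of PARP9, passed in neither fit.

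Rtp4, a receptor chaperone that also binds viral RNA, was 11.14, 11.10, 11.81 and 10.99 in KO 06, KO 04, HT 01 and HT 03, 5.55 to 9.21 in the other 15 and 9.80 to 10.92 in thymi. As for Ifit1 and Irf9, all 15 were below every thymus, as for 3.55% of all genes. Its log2 difference was -1.69 (SE 0.471, limma adjusted p = 0.0103), and -2.08 without the 4 (SE 0.298, limma adjusted p = 1.14e-05). Over the median of its 2 probe sets the first became -0.95 (limma adjusted p = 0.0515). Xaf1, Cmpk2 and Isg20 fell without the 4 too, with log2 differences of -1.42, -1.45 and -0.77. Ifi35 did not pass. Its probe set averaged 11.24 in WT tumors and 11.59 in WT thymi, while its other probe sets averaged 8.28 and 6.60 in WT tumors and 9.17 and 8.86 in WT thymi.

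**Figure D4:**
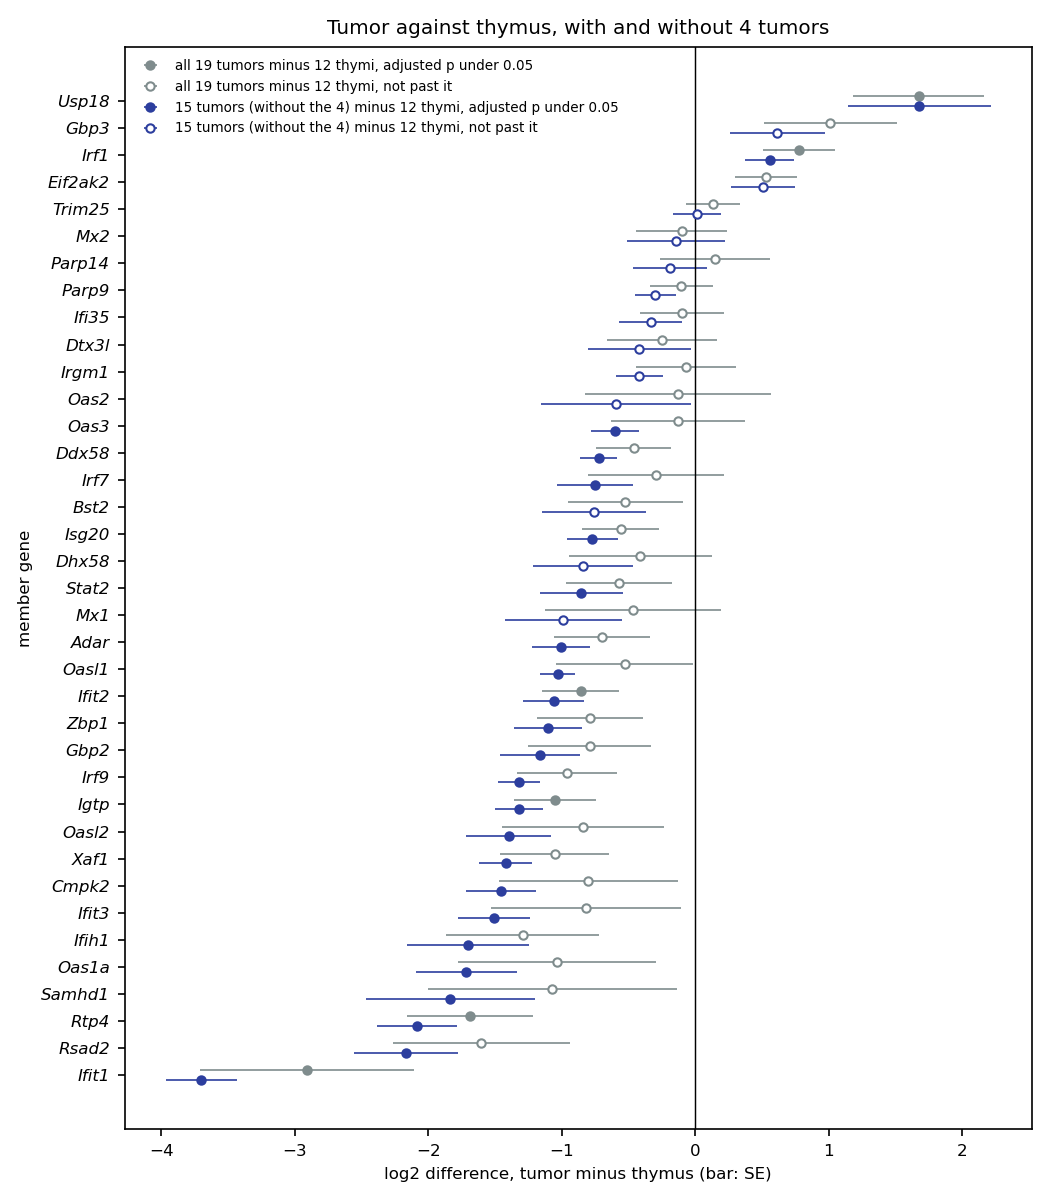
Log2 difference of tumor minus thymus for each of the 37 genes (bar, SE), with all 19 tumors (grey) and with 15 (blue), filled where the adjusted p was under 0.05. Filled points number 6 with all tumors and 24 without the 4, and Usp18 and Irf1 are to the right of 0 in both.

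Split by genotype, 0 of 37 members passed in tumors labelled KO against KO thymi (4.76% of all genes passed) and 0 in HT tumors against HT thymi (3.5%), with limma in 1 fit over all 31 arrays. At an unadjusted p under 0.05 there were 3 (19.6% of all genes) and 1 (15.1%). In WT tumors against WT thymi 1 passed, lower (3.69% of all genes were lower), and 6 had an unadjusted p under 0.05 (21.7% of all genes). The member that passed was Rtp4, at 7.87, 5.82, 8.55, 5.55 and 8.66 in WT tumors 01 to 05 and 10.03, 9.80, 10.05 and 10.41 in WT thymi, with a log2 difference of -2.87 (SE 0.805, limma adjusted p = 0.0309). No WT tumor was in the WT thymus range, but the call was lost without any 1 of the 4 WT thymi or WT tumor 02 or 04 (limma adjusted p of 0.0613 to 0.0933), and without the male tumors of the other genotypes (0.0646). WT tumors were below every WT thymus for 10 members (11.9% of all genes were) and above for 1, Irf1 (10.9%).

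Without the 4, members passed as lower in all 3 genotypes: 11 in tumors labelled KO against KO thymi (5.51% of all genes), 10 in HT (5.52%) and 8 in WT (6.33%). None passed as higher, where 5.99%, 4.25% and 5.39% of all genes did (11.5%, 9.77% and 11.7% in either direction). At an unadjusted p under 0.05 there were 18, 21 and 19 members, against 25.6%, 23.0% and 25.0% of all genes. The medians of the 37 differences were -0.83, -1.06 and -0.86. No WT tumor was left out of that fit, in which the residual spread is shared by all groups. The KO-minus-WT difference of these contrasts, which tests whether genotype changed the tumor difference, was not past the threshold for any member with all tumors (0.0% of all genes, limma, 0 members and 0.849% of all genes at an unadjusted p under 0.05), with a median of 0.78. Without the 4 that median was 0.01. The HT-minus-WT difference had medians of 0.72 and -0.13, with 0 members passing by limma (0.0% of all genes) and 0 at an unadjusted p under 0.05 (1.05% of all genes). Rtp4 had the highest value in both with all tumors, at 1.81 and 1.75.

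All 4 high arrays were labelled KO or HT, and both medians against WT were smaller without them. Those labelled KO, tumors 04 and 06, are among the tumors whose Stk38 was above the lowest WT tumor. With all tumors, tumors labelled KO were above WT tumors by a median of 1.19 over the 37 members on the log2 scale (0.01 over all genes), and HT tumors above WT tumors by 0.85. Without the 4 the medians were 0.315 and -0.06. These comparisons share the WT tumors. By limma on the 19 tumors 0 members passed in either (0.0% of all genes in each), with 5 (3.37% of all genes) and 3 (2.78%) at an unadjusted p under 0.05. Tumors labelled KO against HT tumors gave a median of 0.34 and likewise 0 members (0.0% of all genes, limma, 0 members and 1.1% of all genes at an unadjusted p under 0.05), and the median was 0.405 without the 4. Without the 4, limma again passed 0 members in these comparisons, with 3, 0 and 0 at an unadjusted p under 0.05 (1.24%, 1.07% and 1.61% of all genes). The SE of these differences with all 19 tumors, up to 1.59 for a single member, sets the size that could be seen.

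Samhd1, Rtp4 and Oas1a differed most between tumors labelled KO and WT tumors. Samhd1 had a low of 5.02, a median of 8.39 and a high of 13.06 in tumors labelled KO, and 7.15, 6.18, 6.69, 5.91 and 9.62 in WT tumors (log2 difference 2.47, SE 1.59, limma adjusted p = 0.874). Rtp4 ran over 8.25, 9.11 and 11.14 in tumors labelled KO, and its log2 difference from the WT values given above was 2.27 (SE 0.821, limma adjusted p = 0.874). Oas1a ran over 5.03, 7.89 and 11.89, against 6.78, 5.28, 7.05, 5.38 and 7.85 in WT tumors (2.25, SE 1.28, limma adjusted p = 0.874). For Rtp4, 5 of the 7 tumors labelled KO were above 8.66, the highest WT tumor, and for Samhd1 and Oas1a 3 and 4 were above the highest WT tumor.

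For HT against WT tumors the largest differences were in Rtp4 (7.72, 8.40 and 11.81 as lowest, median and highest HT values, log2 difference 1.95, SE 0.821), Mx1 (1.82, SE 1.15) and Samhd1 (1.71, SE 1.59). Mx1 ran over 3.95, 5.49 and 9.54 in HT tumors, against 4.29, 5.92, 4.76, 4.20 and 5.39 in WT tumors. The HT high for Mx1 is the single tumor 05 described above. Samhd1 had 4.91, 8.80 and 12.66 in HT tumors. Between tumors labelled KO and HT tumors Oas2 differed most (0.76), with a low, median and high of 4.20, 8.04 and 11.34 in tumors labelled KO, against 4.29, 6.82 and 9.16 in HT tumors. Samhd1 (0.76) and Oas1a (0.74, HT values 4.86, 6.73 and 12.03) followed, and both groups spanned nearly the same range for each. Without KO tumor 06 the median member difference between these groups was -0.02.

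In untreated thymus, where the arrays varied far less, KO thymi were slightly above WT thymi for 36 of 37 members, with a median log2 difference of 0.33 (all genes, -0.01, with 47.59% above 0). None passed the limma test across genes (0.186% of all genes did, and the lowest member adjusted p was 0.245), while 18 members had an unadjusted p under 0.05, as 4.99% of all genes had. HT thymi were above WT thymi for 27 members with a median of 0.08, 0 members passed by limma (0.0214% of all genes) and 0 had an unadjusted p under 0.05 (6.75% of all genes). KO thymi were above HT thymi for 35 members with a median of 0.19, 0 passed by limma (0.0571% of all genes), and 12 had an unadjusted p under 0.05 (8.38% of all genes). The KO and HT comparisons share the WT thymi. Members also varied together over the 12 thymi (median r of 0.44 between pairs), so these counts are not counts of independent results. The mean over the 37 genes was 8.448 to 8.806 in KO thymi and 8.235 to 8.438 in WT thymi.

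**Figure D5:**
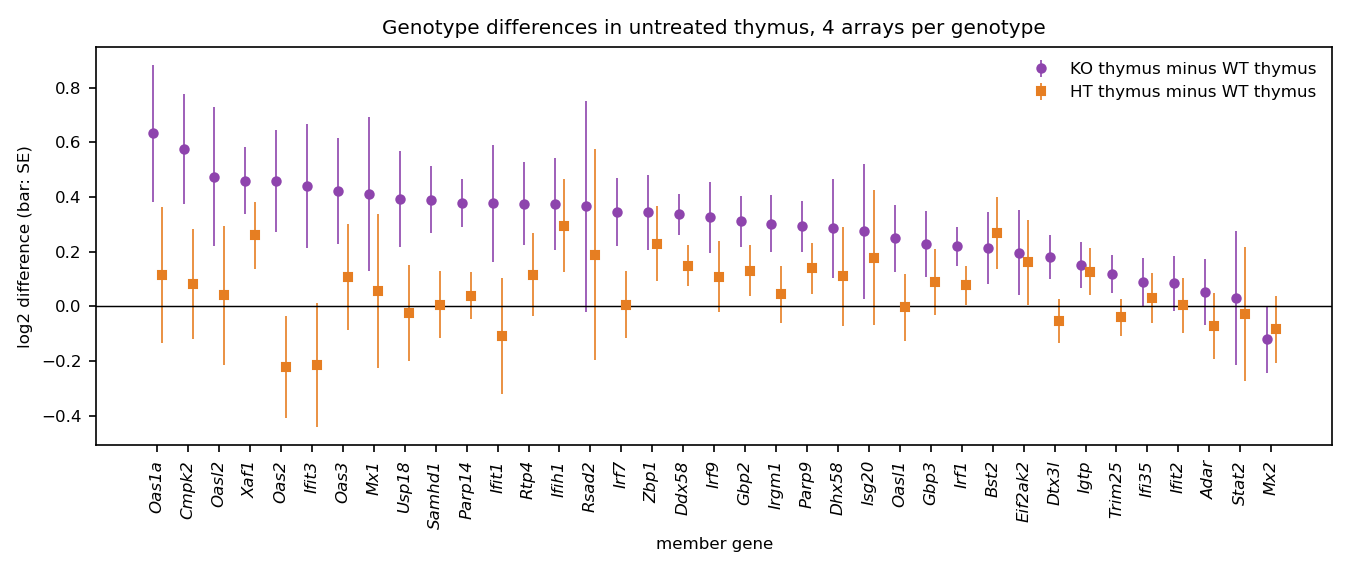
Log2 difference (bar, SE) of KO thymus minus WT thymus (purple circles) and of HT thymus minus WT thymus (orange squares) for the 37 genes, ordered by the first, with 4 arrays per genotype. The KO differences are above 0 for all but Mx2, and the HT differences for 27.

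Oas1a, Cmpk2 and Oasl2 differed most between KO and WT thymi. Oas1a was 8.33, 8.47, 7.93 and 8.98 in KO thymi (2 female, then 2 male), against 8.40, 7.70, 7.48 and 7.598 in WT thymi, a log2 difference of 0.63 (SE 0.25, limma adjusted p = 0.885). Cmpk2, a mitochondrial nucleotide kinase beside Rsad2, was 6.13, 6.32, 6.04 and 6.29 in KO thymi, against 5.58, 5.36, 5.44 and 6.09 in WT thymi (0.57, SE 0.201, limma adjusted p = 0.79). Its other probe set, at a lower level, went the other way, averaging 4.15 in KO thymi and 4.30 in WT thymi. Oasl2 was 8.02, 7.63, 6.91 and 7.28 in KO thymi, against 7.47, 6.84, 6.76 and 6.87 in WT thymi (0.47, SE 0.254). In each of these the groups overlapped by 1 or more arrays.

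For 3 members every KO thymus was above every WT thymus, where 0.956% of all genes did so. Ddx58 was 8.98, 8.91, 8.89 and 9.00 in KO thymi, against 8.73, 8.55, 8.46 and 8.68 in WT thymi (log2 difference 0.34, SE 0.076, limma adjusted p = 0.245). Parp14 was 9.62, 9.56, 9.45 and 9.67, against 9.32, 9.14, 9.04 and 9.28 in WT thymi (0.38, SE 0.087, limma adjusted p = 0.249), and Irf1 was 10.29, 10.12, 10.20 and 10.21, against 10.03, 10.06, 9.85 and 10.003 in WT thymi (0.22, SE 0.071). Ddx58 and Parp14 were also above every HT thymus, where 1.03% of all genes were. HT thymi, at 8.79, 8.79, 8.65 and 8.79 for Ddx58 and 9.24, 9.41, 9.20 and 9.09 for Parp14, overlapped WT thymi in both.

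For every other member KO and WT thymi overlapped. Irf7 was 7.57, 7.31, 6.96 and 7.37 in KO thymi, against 7.27, 7.18, 6.83 and 6.56 in HT and 7.10, 7.08, 6.64 and 7.003 in WT thymi. Oas2 was 6.75, 6.98, 5.71 and 6.30 in KO thymi, against 6.12, 6.47, 5.69 and 4.76 in HT and 6.43, 6.51, 5.48 and 5.49 in WT, and the KO-minus-HT log2 difference was 0.68 (SE 0.186, limma adjusted p = 0.422). Most of the spread of Oas2 lay between the first and last pair of each group, that is between females and males. Oas1a was 8.51, 8.18, 7.62 and 7.33 in HT thymi, and its KO-minus-HT difference was 0.52 (SE 0.25). Ifit3 was 8.25, 7.73, 8.49 and 8.83 in KO thymi, against 7.87, 7.53, 7.64 and 7.64 in HT thymi (0.66, SE 0.228, limma adjusted p = 0.505) and 7.87, 7.94, 7.36 and 8.36 in WT thymi. The largest values of HT against WT thymi were in Ifih1 (0.30, SE 0.169), Bst2 (0.27, SE 0.131) and Xaf1 (0.26, SE 0.123).

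Bst2 was 9.98, 9.78, 9.51 and 9.45 in HT thymi and 9.51, 9.24, 9.45 and 9.45 in WT thymi, so the groups met at the lower end. Xaf1, a partner of apoptosis inhibitors, was 9.60, 9.50, 9.41 and 9.48 in HT thymi, with 9.34, 8.99, 9.15 and 9.47 in WT thymi. Ifih1 was 9.34, 8.79, 8.82 and 9.04 in HT thymi, with 8.85, 8.25, 8.73 and 8.97 in WT thymi. All 3 overlapped between HT and WT.

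Irf9 was 10.12, 9.70, 9.56 and 10.13 in KO thymi, 9.75, 9.80, 9.52 and 9.58 in HT and 9.66, 9.43, 9.51 and 9.62 in WT thymi. Ifit1 was 8.38, 8.05, 8.56 and 9.49 in KO thymi, 8.20, 7.79, 8.32 and 8.23 in HT and 8.10, 7.92, 8.15 and 8.81 in WT thymi, so KO thymus M_02 was the highest for both. Rsad2 was 9.38, 7.78, 7.25 and 8.58 in KO thymi, 8.86, 7.79, 7.80 and 7.84 in HT and 8.26, 7.71, 7.39 and 8.17 in WT thymi. Zbp1 was 9.25, 8.75, 9.06 and 9.48 in KO thymi, 8.85, 8.78, 9.08 and 9.38 in HT and 8.61, 8.42, 8.95 and 9.20 in WT thymi. The KO and WT ranges of these 4 overlapped, and their KO-minus-WT differences were 0.33, 0.38, 0.37 and 0.34 on the log2 scale, each with a limma adjusted p of 0.885 or more. Stat2, at 7.34, 7.08, 7.39 and 6.28 in KO, 6.54, 6.86, 7.09 and 7.36 in HT and 6.85, 6.86, 7.36 and 6.89 in WT thymi, differed by 0.03 between KO and WT. Bst2 was 9.79, 9.45, 9.46 and 9.81 in KO thymi and differed by 0.21 from WT.

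Mature T cell markers were also higher in KO thymi. The mean of 7 markers was 9.36 to 9.62 in KO thymi, 8.87 to 9.33 in HT and 8.83 to 9.08 in WT thymi, so KO did not overlap WT. Over the 12 thymi the member mean had r = 0.84 (rho = 0.87) with this marker mean, and 0.67 without the 2 arrays farthest from the marker median, given as a description. Single members ran up to r = 0.94 with it (Parp14), with Samhd1 at 0.89 and Irf1 at 0.87. Against double-positive thymocyte markers the member mean had r = -0.80. Neutrophil markers averaged 6.09 ± 0.87 in KO, 7.35 ± 0.71 in HT and 8.13 ± 0.97 in WT thymi (SD, n = 4 each). The part of these cells in the member differences was not tested.

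Sex was balanced in the thymi, and 11 of 37 members differed between 6 male and 6 female thymi by limma, near the 25.9% of all genes that did. Of these, 3 were higher in males (15.2% of all genes were) and 8 lower (10.7%). At an unadjusted p under 0.05 there were 13, likewise near the share of all genes (38.6%). Among those lower in males were Adar (log2 difference -0.76, SE 0.099, limma adjusted p = 0.000518 across all genes), Mx1 (-1.11, SE 0.230), Oas2 (-0.97, SE 0.152) and Oasl2 (-0.75, SE 0.207). Mx1 was 4.84, 5.71, 5.37, 4.32, 5.01 and 5.49 in male thymi and 6.72, 6.47, 6.59, 6.04, 5.79 and 5.81 in female thymi, with KO, HT and WT in that order. Males and females did not overlap for Mx1 and Adar, as 5.14% of all genes did not with males lower. Higher in males were Ifit1 (0.52), Gbp2 (0.35) and Zbp1 (0.42), and the Ifit1 call was lost in 9 of the 12 fits without 1 thymus (limma adjusted p of 0.0588 to 0.106), its value falling to 0.37 without KO thymus M_02. Over the median of a gene's probe sets the Zbp1 call was lost (0.13, limma adjusted p = 0.412), as were those of Dhx58, Trim25 and Dtx3l, and the Adar difference was -0.25 (limma adjusted p = 0.0297). The Oasl2 call was lost without HT thymus F_01 (limma adjusted p = 0.0505). Thymic epithelial markers averaged 5.19 to 5.75 in male and 7.04 to 8.57 in female thymi, and macrophage markers 5.50 to 6.56 in male and 7.06 to 7.71 in female thymi. Their part in the sex difference was not tested.

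Other genes of the pathway were taken from lists. Of 19 interferon ligands 10 were measured and 3 passed the filter on low values, of which 0 passed the limma test of tumor against thymus and 0 had an unadjusted p under 0.05. Probe sets of 8 type I ligands (Ifna1, Ifna2, Ifna4, Ifna5, Ifna9, Ifna11, Ifnab and Ifnb1) stayed at 2.7 to 4.7 on every array, where the lowest value of the files is 2.34, so no level clearly above that floor was seen. Ifnz, a ligand of the same receptor, was 5.44 to 5.97 in the 4 tumors, 4.35 to 7.92 in the other 15 and 4.64 to 6.74 in thymi. Ifng, interferon gamma, was 4.80 in KO tumor 06, 8.11 in KO tumor 04, 8.56 in HT tumor 01 and 8.50 in HT tumor 03. It was at most 4.01 in the other 15 tumors and 4.10 in thymi. Thus 3 of the 4 tumors had Ifng more than 4 log2 units above the other 15, and KO tumor 06, with a member mean as high, was at 4.80, close to the rest.

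Beside 11.6% of all genes higher and 12.6% lower in tumors than in thymus, 3 of the 6 receptor chains were lower and 0 higher: Ifngr1 (log2 difference -1.49, SE 0.211, limma adjusted p = 1.11e-05), Ifngr2 (-1.37, SE 0.317) and Ifnar2 (-0.76, SE 0.258). Ifngr1 was 9.79 to 10.94 in the 4, 8.87 to 11.33 in the other 15 and 11.38 to 11.87 in thymi, so no tumor reached the thymi. Of 12 measured kinases, STATs and inhibitors, 2 rose and 2 fell, near those shares. Socs1, an inhibitor of JAK kinases, fell by 3.24 on the log2 scale (SE 0.355, limma adjusted p = 2.14e-07), and was 5.30 to 6.96 in the 4, 3.22 to 7.39 in the other 15 and 8.17 to 8.93 in thymi. Socs3, which acts mainly on gp130 receptors, rose by 1.96 (SE 0.244). Ptpn2 rose by 0.62 and Jak1 fell by 0.80.

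Of 17 tested genes of nucleic acid sensing 3 rose and 0 fell, where 11.6% of all genes rose and 12.6% fell. Sting1, the adaptor of cGAS, rose by 1.80 (SE 0.271, limma adjusted p = 2.28e-05), and every tumor was at 9.09 or more while every thymus was at 8.61 or less. Ifi204, a DNA sensor, rose by 2.62 (SE 0.723), with 4.83 to 6.95 in the 4, 4.63 to 10.60 in the other 15 and 3.90 to 4.62 in thymi, so its highest values lay outside the 4. Mavs, the adaptor of RIG-I and MDA5, rose by 0.74.

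Of 42 interferon-stimulated genes that are not on the list of 39, 3 rose and 7 fell between tumor and thymus with all tumors, near the 11.6% and 12.6% of all genes, with a median of -0.46. Slfn1, a growth-restraining gene of T cells, fell by 3.35 (SE 0.876, limma adjusted p = 0.00654) and, as for Ifit1, the 15 lay below every thymus, with 10.72 to 11.90 in the 4, 3.83 to 6.68 in the other 15 and 8.52 to 10.13 in thymi. Ddx60 fell by 2.25 and was 8.22 to 8.83, 3.43 to 6.55 and 6.52 to 8.13 in these sets. Ly6e fell by 0.70 and Mov10 rose by 0.84. In KO against WT thymi 1 of the 42 passed (0.186% of all genes did), Nlrc5, the activator of MHC class I genes, with a log2 difference of 0.57 (limma adjusted p = 0.0281), named here after its value was seen. It was 9.63, 9.70, 8.77 and 9.00 in KO thymi, against 9.10, 9.09, 8.29 and 8.33 in WT thymi, so KO was higher within each sex.

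The members varied together to different extents in the sets of arrays. Over the 666 pairs the median r was 0.44 in the 12 thymi and 0.12 in the 15 other tumors, where the medians between sampled genes were 0.03 and 0.01. The points share array normalization and cell composition, and these are descriptions. Closest in the 15 tumors were Irf1 and Parp14 (r = 0.96) and Mx1 with Mx2 (0.94, both highest in HT tumor 05), and in the thymi Gbp2 and Zbp1 (0.93) and Oasl2 and Mx1 (0.93). The genes outside the list nearest to the members' standardised mean in the 12 thymi were Slfn8 (0.89), Trim30a (0.89), Sowahc (0.88), Niban1 (0.86), Ms4a4b (0.85) and Ccr7 (0.85), followed by Gm8369, Iigp1, Trim34a and Btla. Over the 19 tumors the nearest were Casp4, Pglyrp1, Mreg, Pik3ap1, Gcnt1, 5430427O19Rik, Lat2, Penk, St8sia6 and Slc9a7. No r is given there, since the tumors fall into separate sets. Casp4 was 9.05 to 9.49 in the 4 tumors, 2.99 to 4.37 in the other 15 and 3.18 to 4.48 in thymi.

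As a sign of RNA quality, the signal of 3' over 5' control probes (log2) ran from 0.18 to 4.87 in tumors and from 0.26 to 0.50 in thymi. In the 15 tumors it had r = 0.75 with Trim25, 0.70 with Oas2 and 0.67 with Parp14, and -0.69 with Dtx3l, as a description, and r = 0.305 with the member mean. In HT tumor 07, with the highest ratio of 4.87, Stat2 (4.05), Bst2 (5.86) and Dtx3l (7.24) were the lowest of all tumors. With this ratio as a covariate 3 members passed in tumor against thymus, Usp18 as higher (7.96% of all genes were) and Ifit1 and Rtp4 as lower (1406 of 14016 genes were). The calls of Igtp (log2 difference -0.95), Irf1 (0.65) and Ifit2 (-0.60) were lost, with limma adjusted p of 0.0508 to 0.171. Its part in the single-gene values was not tested.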

How the data were processed

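Per the submitters' processing notes, the authors made the deposited intensities with GCRMA, whose version and probe annotation are not given in the sources used here. Every array had a median intensity of 20.0. Here intensity + 1 was taken to log2. Of 45101 probe sets, 34957 named 1 gene, 932 several and 9211 none in the platform annotation, and 99.416% of the gene IDs were in the RefSeq table. Genes at or below 3.6055 log2, the 25th percentile of the mean level over the single-gene probe sets, were left out of tests, leaving 14016.

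limma 3.58.1 (R 4.3.3) was fitted on thymi, on tumors and on all arrays, with sex as covariate and Benjamini-Hochberg adjustment (threshold 0.05). Tumor against thymus is the mean of the 3 genotype contrasts, adjusted for sex, which was unevenly spread between tumors and thymi. It can therefore differ from the plain difference of means. Without the 4, for example, Oas2 had a log2 difference of -0.595, with means of 5.943 in the 15 tumors and 6.058 in the thymi. The number of arrays limits the precision. The fit was tested on simulated data with added log2 differences of 0.5, 1 and 2. It recovered 36.5%, 78.9% and 95.5% of them for KO against WT thymi. For tumor against thymus it recovered 23.9%, 72.1% and 92.3%. For KO against WT tumors it recovered only 1.61%, 28.8% and 63.9%, so many differences of these sizes would be missed between tumor genotypes. The members and lists were chosen with earlier results of these data known. Every-array values are given for 10 preset members and the 3 largest differences per genotype comparison, and up to 5 rises and 5 falls that passed are described for tumor against thymus. Labels name a whole-transcript labelling kit, whereas these arrays read 3' ends.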

Additional observations from a re-analysis of the deposited data

Results flagged for a closer look

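Within the 6 groups, 11 of 228 sets of values (4.82%) held an array far from the others of its group by Dixon's ratio, where chance gives about 1 in 20. In tumors, Usp18 was 5.166 in WT tumor 02, against 10.35 to 11.97 in the other WT tumors, and Mx2 was 7.989 in HT tumor 05. Irf9 was highest in WT tumor 05, at 9.063. Trim25 was lowest in WT tumor 03, at 10.748, Parp9 in WT tumor 04, at 8.781, and Eif2ak2 in KO tumor 03, at 7.224. The gaps in thymi were smaller. Ifit2 was 10.003 in KO thymus F_02 and Ddx58 8.65 in HT thymus M_01, both below the rest of their group. Stat2 was 7.358 in WT thymus M_01, Oasl2 7.475 in WT thymus F_01 and Rsad2 8.855 in HT thymus F_01, each above the rest of its group.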

How the results depend on the processing

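The number of members that passed for tumor against thymus (6, with 2 higher and 4 lower) was 10 with no sex covariate, 3 with the 3'/5' ratio as covariate, 14 with variance weights for tumors and thymi, 24 without the 4 tumors of highest B cell marker mean and 2 without the male tumors. With 1 array left out it ran from 4 (without WT thymus F_02, HT thymus F_01, HT thymus F_02 or KO thymus F_01) to 9 (without HT tumor 01, HT tumor 03 or KO tumor 06). Under variance weights and without the 4, the count was 5 and 11 in tumors labelled KO against KO thymi, 1 and 10 in HT tumors and 5 and 8 in WT tumors. For WT tumors it was 0 over the median of a gene's probe sets, 0 without the male tumors, and 0 to 1 with 1 array left out. The median member difference turned to -0.133 for the HT-minus-WT difference of tumor against thymus and to -0.064 for HT against WT tumors without the 4, and for tumors labelled KO against HT tumors it ran from -0.022 (without KO tumor 06) to 0.755 (without HT tumor 01). Between thymus genotypes no setting tried gave a member that passed. Same-numbered thymi deviated together (correlation 0.386 to 0.581), but the number includes the sex, and within a sex the correlation was -0.059 to 0.204. For tumors it was -0.566 to 0.565, so the numbers were not taken as pairs. With the number as a replicate block 0 members passed in each of the 6 genotype comparisons, as without it, and the medians were 0.326, 0.077 and 0.187 in thymi (KO against WT, HT against WT, KO against HT) and 1.087, 0.698 and 0.342 in tumors. Male against female thymi gave 8 to 13 members with 1 array left out. Calls of single members were lost in 22 cases under other settings and in 43 with 1 array left out. The causes of these changes were not tested. The arrays have a floor, and members near it are measured less well.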
